A study of Rattus norvegicus with 58 samples.

Results

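The genes described here carry glucose and fructose into liver glycolysis. They are the carrier gene Slc2a2, the regulator gene Gckr, the fructose kinase gene Khk, the bifunctional regulator gene Pfkfb1 and the enzyme genes Pfkl, Eno1 and Pklr. Members were chosen by symbol: every probe set whose platform annotation gave one of these symbols and no other was taken, and where a gene had several, the brightest by its mean over the 58 arrays stood for it. This gave 7 of the 14217 genes with a symbol of their own and 8 of the 31042 probe sets. Pklr had 2 probe sets, the other 6 genes 1 each, and the second Pklr probe set was kept as a check.

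The livers came from male rats aged 17 weeks that had been fasted overnight. Of the 58 arrays, 46 were from rats of the heterogeneous stock (HS), which is outbred and goes back to inbred founder strains, with 23 glucose-intolerant rats and 23 rats with normal glucose tolerance. The other 12 were from inbred rats, 2 arrays per strain, of 6 of those founders: WKY, M520, F344, BUF, BN and ACI. The HS rats were put into their groups by the sample titles and the design text, because one description of the intolerant rats also contains the word normal. The labels name no transgene and no agent given to any rat. All values are log2 expression, so a difference of 1 is a 2-fold difference, and no gene's level is set against another gene's.

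As background, glucose enters hepatocytes through the carrier GLUT2, the product of Slc2a2, and is then phosphorylated, a step that the regulatory protein made from Gckr restrains when sugar is scarce. Fructose is phosphorylated by ketohexokinase, the Khk product, and joins glycolysis below the phosphofructokinase step, so it bypasses that control point. Phosphofructokinase (Pfkl) is set in turn by a fructose bisphosphate regulator that the Pfkfb1 enzyme makes and degrades, and enolase (Eno1) and pyruvate kinase (Pklr) complete the route to pyruvate. After an overnight fast the liver normally turns from glycolysis to glucose production. Transcription of Pklr is a textbook case of control by sugar, through the carbohydrate response element in its promoter.

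Promoters are shown for Pklr and Khk, because these 2 genes gave the highest correlation among HS rats of any pair of members. Both are printed as the 250 bases before the RefSeq transcription start in the GRCr8 assembly, a genome of the BN strain, 5′ to 3′ on the gene's own strand. Pklr lies at chr2:176841014-176841263 on the plus strand and Khk at chr6:31175482-31175731 on the minus strand. Capitals mark, from left to right, a match to a carbohydrate response element type of motif and a match to an HNF1 type of motif.
Pklr: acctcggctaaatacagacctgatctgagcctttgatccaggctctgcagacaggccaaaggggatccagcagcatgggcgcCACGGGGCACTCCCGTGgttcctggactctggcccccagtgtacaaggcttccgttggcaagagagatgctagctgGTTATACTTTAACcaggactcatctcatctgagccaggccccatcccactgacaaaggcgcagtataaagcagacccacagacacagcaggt
Khk: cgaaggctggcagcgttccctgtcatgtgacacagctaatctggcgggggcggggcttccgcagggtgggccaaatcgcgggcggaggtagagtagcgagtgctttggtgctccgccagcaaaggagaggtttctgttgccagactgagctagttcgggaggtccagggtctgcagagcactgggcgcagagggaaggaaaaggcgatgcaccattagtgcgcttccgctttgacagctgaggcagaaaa

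The carbohydrate response element type was searched as CACGNGNNNNNCNCGTG, the HNF1 type as GTTANNNNNTAAC and the plain E-box as CACGTG, where N is any base. Each is its own reverse complement, so a search of 1 strand covers both, and the carbohydrate response element type can hold an E-box at either end. In Pklr the match CACGGGGCACTCCCGTG ran from base -168 to -152 before the start, and GTTATACTTTAAC ran from -92 to -80. Over 33469 RefSeq promoter windows of 300 bases, which begin 250 bases before the start and run past it, the first type occurred in 11 (0.0329%), the HNF1 type in 83 (0.248%) and the E-box in 2148 (6.42%). All 7 members had a window, and Eno1 had 2, so 8 windows were searched. The 6 members other than Pklr held none of these letters in their windows. Gckr, with its window at chr6:30795578-30795877, lies on the same chromosome as Khk, with its window at chr6:31175432-31175731. The windows of the others were at chr2:113540120-113540419 for Slc2a2, chr20:10663715-10664014 for Pfkl and chrX:22941926-22942225 for Pfkfb1, and at chr5:166002617-166002916 and chr5:166003111-166003410 for Eno1. A match or its absence describes these letters in the reference genome and was not tested for binding.

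The arrays had medians between 5.33 and 5.39, all 58 differed in their values, and arrays of the same strain correlated at 0.989 to 0.997 over all probe sets. The mean of 13 hepatocyte markers lay between 13.91 and 14.05 in HS rats and between 13.96 and 14.12 in inbred rats, and the mean of 8 skeletal muscle markers in HS rats lay between 4.44 and 4.65. Whether arrays of 1 strain stem from different litters or days is not in the labels, so the p-values cover only the spread seen between them. RNA came from whole liver, in which fewer cells of a type and less RNA per cell cannot be told apart.

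The comparison of HS rats asked whether these genes differ with glucose tolerance. None of the 7 members passed the test, against 0 of all 31042 probe sets (0%, limma, adjusted p under 0.05). The means of Slc2a2, Gckr, Khk, Eno1 and Pklr were larger in intolerant rats and those of Pfkfb1 and Pfkl smaller, with a median difference of 0.13 over the 7 members. Over all 14217 genes the median difference was -0.01, and 42.5% of genes had the larger mean in intolerant rats. Without adjustment 2483 probe sets (8%) had a p under 0.05, among them those of Pklr, Eno1 and Khk.

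Slc2a2 ranged from 11.09 to 12.22 (median 11.64) in normal rats and from 11.36 to 12.18 (median 11.79) in intolerant rats. The groups overlapped almost fully. Their means were 11.68 ± 0.28 and 11.81 ± 0.22 (SD, n = 23 each), a difference of 0.13 ± 0.07 (SE, 95% interval -0.02 to 0.27, limma adjusted p = 0.669). Gckr ran from 9.69 to 10.94 (median 10.58) in normal and from 10.30 to 10.94 (median 10.58) in intolerant rats. The medians were alike, but 5 normal rats lay below every intolerant rat, and the SD was 0.34 against 0.17. The difference of the Gckr means was 0.13 ± 0.08 (SE, 95% interval -0.02 to 0.29, limma adjusted p = 0.673).

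Khk, which directs dietary fructose into the liver's sugar phosphates, ran from 10.88 to 11.47 (median 11.16) in normal and from 10.87 to 11.59 (median 11.25) in intolerant rats. The ranges overlapped, yet 21 of 23 intolerant rats lay above the median of the normal rats. The means, 11.14 ± 0.16 and 11.26 ± 0.15 (SD, n = 23 each), differed by 0.12 ± 0.05 (SE, 95% interval 0.02 to 0.21, limma adjusted p = 0.513).

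Pfkfb1 was the most variable member, from 7.97 to 10.65 (median 9.02) in normal and from 7.40 to 10.21 (median 9.14) in intolerant rats. Neither group stood apart, and the interval of the difference was wide (-0.15 ± 0.21 SE, 95% interval -0.57 to 0.27, limma adjusted p = 0.883). Pfkl, the liver subunit of phosphofructokinase, ran from 5.35 to 6.72 (median 6.04) in normal and from 5.07 to 6.45 (median 5.95) in intolerant rats. Only 7 of 23 intolerant rats lay above the normal median, and the means differed by -0.13 ± 0.10 (SE, 95% interval -0.33 to 0.07, limma adjusted p = 0.758).

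Eno1 ran from 10.56 to 11.62 (median 10.93) in normal and from 10.59 to 11.67 (median 11.20) in intolerant rats. Of the intolerant rats 18 lay above the normal median, and of the normal rats 4 lay above the intolerant median. The means were 10.94 ± 0.24 and 11.16 ± 0.25 (SD, n = 23 each), a difference of 0.21 ± 0.07 (SE, 95% interval 0.07 to 0.35, unadjusted p = 0.0041, limma adjusted p = 0.433).

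Pklr, whose enzyme makes pyruvate and ATP in the last step of glycolysis, ran from 7.75 to 9.33 (median 8.40) in normal and from 8.38 to 9.46 (median 8.67) in intolerant rats. The groups shared most of their range, but 11 of the 23 normal rats lay below every intolerant rat, and 22 of the 23 intolerant rats lay above the normal median. The means were 8.45 ± 0.36 and 8.74 ± 0.30 (SD, n = 23 each). This is a difference of 0.29 ± 0.10 (SE), or 1.22-fold, with a 95% interval of 0.09 to 0.48, an unadjusted p of 0.0042 and a limma adjusted p of 0.433. The second Pklr probe set gave 7.64 ± 0.33 and 7.89 ± 0.30 (SD, n = 23 each), a difference of 0.25 ± 0.09 (SE, limma adjusted p = 0.481). A difference at least as large as that of Pklr, in either direction, was found for 140 of the 14217 genes.

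**Figure D1:**
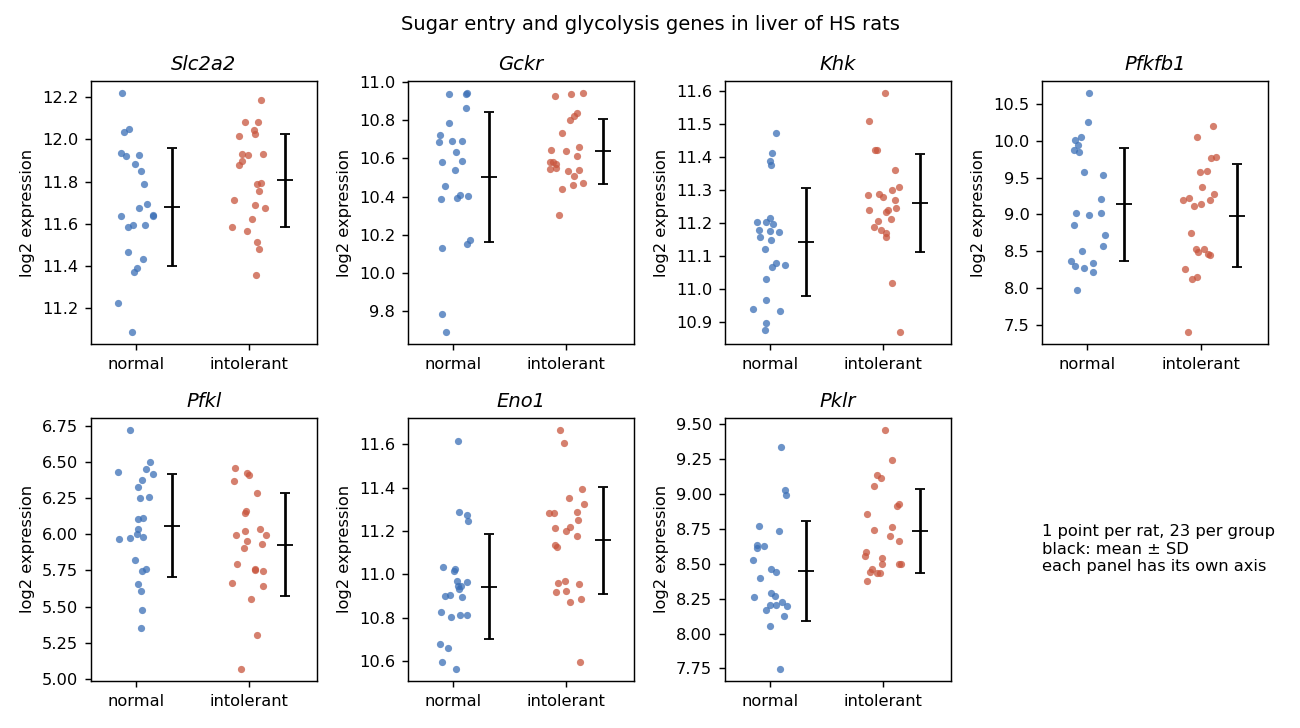
Log2 expression of the 7 genes in HS rats (vertical axes, a separate axis per gene) by glucose tolerance (horizontal axes); each point is 1 rat, 23 per group, and the black mark is the mean ± SD. The groups overlap for every gene, and for Pklr 11 normal rats lie below the lowest intolerant rat at 8.38.

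None of the markers of liver cell types passed the test between the glucose groups, and the median difference per marker list lay between -0.08 and 0.01. The larger mean was in intolerant rats for 9 of 13 hepatocyte markers, 5 of 10 periportal, 1 of 11 pericentral, 1 of 10 Kupffer cell, 1 of 12 endothelial, 2 of 5 bile duct, 3 of 12 stellate, 4 of 8 lymphocyte, 1 of 4 red cell and 2 of 8 muscle markers. The mean over the endothelial list lay between 7.22 and 7.83 in normal and between 6.97 and 7.82 in intolerant rats, and that over the pericentral list between 9.27 and 10.04 and between 9.15 and 9.91. Their part in the differences of the 7 genes was not tested.

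The comparison of inbred strains asked whether the same genes differ by strain. Over the 6 strains, Pfkfb1, Khk, Pklr and Pfkl differed, which is 4 of the 7 members against 11.9% of all probe sets (limma moderated F test). All probe sets include dim and unnamed ones, whereas each member is the brightest probe set of a named gene, though that of Pfkl was only at percentile 58.6 by its mean. The F test called 2241 of 14217 with 1 probe set per gene, and 3053 of 15521 among brighter probe sets. Both shares are larger than that over all probe sets. The members were chosen with earlier results of these data known, so the 4 of 7 is a description and no test of the set. The count of members fell to 0 without variance moderation and to 1 with all 58 arrays in 1 fit. Gckr, Eno1 and Slc2a2 did not pass. When each strain was set against the mean of the other 5, 8 of the 42 contrasts passed, of which 2 were in BN, 3 in BUF, 1 in M520 and 2 in WKY. The percentages of all probe sets called in these contrasts were 4.68% for BN, 5.76% for BUF, 4.65% for M520 and 4.74% for WKY. ACI (2.42%) and F344 (1.61%) gave no call among the members.

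The strain means of Slc2a2 lay close together. The arrays read 11.70 and 11.74 in ACI, 11.38 and 11.69 in BN, 11.97 and 11.55 in BUF, 11.60 and 11.45 in F344, 11.88 and 11.46 in M520, and 11.63 and 11.77 in WKY. The 2 arrays of BUF or M520 differed by more than the strain means did, which ranged over 0.24 (limma moderated F test, adjusted p = 0.799), and none of the 15 strain pairs differed. Over the 15 pairs together, 3.88% of all differences between probe sets were called.

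For Gckr the arrays read 10.47 and 10.67 in ACI, 10.64 and 10.64 in BN, 10.99 and 11.32 in BUF, 10.92 and 10.91 in F344, 10.70 and 10.47 in M520, and 10.57 and 10.75 in WKY. Both BUF arrays lay above all others, and both F344 arrays came next. BUF was higher than the mean of the other 5 strains by 0.48 ± 0.11 (SE), or 1.4-fold (limma adjusted p = 0.0347), while the F test over the 6 strains gave an adjusted p of 0.0744. Among the 15 pairs, BUF differed from ACI and from M520. Over the 9 alternatives that kept all inbred arrays, the Gckr contrast of BUF stayed called in 6. The Gckr call in BUF was lost without BUF replicate 2 (0.32, adjusted p = 0.536), and also, at adjusted p between 0.0524 and 0.0686, without either ACI array, either BN array, F344 replicate 1 or M520 replicate 2. Without BUF replicate 1 the F test for Gckr passed (adjusted p = 0.0400).

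Khk differed among the strains, with BUF highest and M520 lowest. Its arrays read 11.15 and 11.17 in ACI, 10.56 and 10.93 in BN, 11.46 and 11.78 in BUF, 11.30 and 11.30 in F344, 10.71 and 10.40 in M520, and 10.94 and 11.11 in WKY. BUF was above all 10 other arrays, and BN and M520 together held the 4 lowest values. The means ran from 11.62 ± 0.22 in BUF down through F344, ACI, WKY and BN to 10.55 ± 0.22 in M520 (SD, n = 2 each), a range of 1.07 (limma moderated F test, adjusted p = 0.0109). BUF was higher than the other 5 strains by 0.66 ± 0.13 (SE), or 1.58-fold (limma adjusted p = 0.0151), and M520 was lower, by -0.62 ± 0.13, or 1.53-fold (adjusted p = 0.0214). BUF differed from BN and from M520, and F344 from M520. Over the 9 alternatives that kept all inbred arrays, the BUF call for Khk held in 7 and the M520 call in 8. The BUF call was lost without BUF replicate 2 (0.50, adjusted p = 0.332), and the M520 call without M520 replicate 1 (adjusted p = 0.0797) or 2 (adjusted p = 0.267). The F test for Khk passed without each of the 12 arrays in turn, with adjusted p between 0.0101 and 0.0399, but was lost without variance moderation (adjusted p = 0.103).

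Pfkfb1 varied most among the members here as well. Its arrays read 9.01 and 9.55 in ACI, 10.04 and 10.44 in BN, 8.39 and 8.71 in BUF, 9.58 and 10.14 in F344, 8.75 and 9.04 in M520, and 8.59 and 8.59 in WKY. BN and F344 held the 4 highest values, and BUF and WKY held the 4 lowest. The means ranged over 1.69 (limma moderated F test, adjusted p = 0.00192), and 6 of the 15 pairs differed: BN from ACI, BUF, M520 and WKY, and F344 from BUF and WKY. BN was higher than the other 5 strains by 1.20 ± 0.18 (SE), or 2.31-fold (limma adjusted p = 0.00223). BUF and WKY were lower, by -0.82 ± 0.18 (adjusted p = 0.0244) and -0.77 ± 0.18 (adjusted p = 0.0298). F344 gave 0.75 ± 0.18 and did not pass (adjusted p = 0.0687). The BN call was lost without BN replicate 2 (1.01, adjusted p = 0.0614), the BUF call without BUF replicate 1 (adjusted p = 0.0963) or 2 (adjusted p = 0.149), and the WKY call without WKY replicate 1 (adjusted p = 0.228), WKY replicate 2 (adjusted p = 0.117) or M520 replicate 2 (adjusted p = 0.0559). The F test for Pfkfb1 passed without each array in turn, with adjusted p between 0.00143 and 0.0103, but was lost without variance moderation (adjusted p = 0.0810) and with all 58 arrays in 1 fit (adjusted p = 0.225). The 3 strain calls for Pfkfb1 were lost under these 2 settings too, at adjusted p of 0.0610 to 0.163 and of 0.247 to 0.494. Over the 9 alternatives that kept all inbred arrays, the BN call held in 7 and the BUF and WKY calls in 6 each.

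For Pfkl the arrays read 5.74 and 5.94 in ACI, 6.55 and 6.31 in BN, 5.92 and 6.32 in BUF, 6.01 and 6.06 in F344, 5.83 and 6.26 in M520, and 5.38 and 5.55 in WKY. Both WKY arrays were below all others. Pfkl was the dimmest member, with a mean of 5.99 over the 58 arrays, at percentile 58.6 of all probe sets. The WKY values lay near the array medians of 5.33 to 5.39, so the size of this difference is uncertain. WKY was lower than the other 5 strains by -0.63 ± 0.14 (SE), or 1.55-fold (limma adjusted p = 0.0245). BN gave 0.53 ± 0.14, which did not pass (adjusted p = 0.0551), and BN against WKY was the 1 pair of 15 that differed. The means ranged over 0.97 (limma moderated F test, adjusted p = 0.0429). Over the 9 alternatives that kept all inbred arrays, the F test call and the WKY call for Pfkl each held in 7. The F test call was lost without either array of ACI, F344, WKY or BN, at adjusted p between 0.0589 and 0.140, and the WKY call was lost without WKY replicate 1 (0.283), WKY replicate 2 (0.0616) or ACI replicate 2 (0.0521), all adjusted p.

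Eno1 read 10.87 and 10.98 in ACI, 10.62 and 10.66 in BN, 10.75 and 10.80 in BUF, 11.09 and 10.74 in F344, 10.69 and 10.70 in M520, and 11.21 and 11.13 in WKY. Both WKY arrays were above all others, but the contrast of 0.38 ± 0.10 (SE) with the other 5 strains did not pass (limma adjusted p = 0.0614), nor did the F test (range 0.53, adjusted p = 0.104) or any of the 15 pairs.

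Pklr was lowest in BN. The arrays read 8.28 and 8.39 in ACI, 7.82 and 7.49 in BN, 8.69 and 8.74 in BUF, 8.81 and 8.39 in F344, 8.40 and 8.0 in M520, and 8.40 and 8.99 in WKY. Both BN arrays were below all 10 others. The BN mean was 7.65 ± 0.23 (SD, n = 2), lower than the other 5 strains by -0.85 ± 0.17 (SE), or 1.81-fold (limma adjusted p = 0.0125), and BN differed from BUF, F344 and WKY. The order from BUF down through WKY, F344, ACI and M520 to BN spanned 1.06 (limma moderated F test, adjusted p = 0.0331).

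The second Pklr probe set read 7.49 and 7.76 in ACI, 6.59 and 6.72 in BN, 8.06 and 7.98 in BUF, 8.18 and 7.67 in F344, 7.55 and 7.03 in M520, and 7.09 and 7.77 in WKY. BN was again below all others, by -1.0 ± 0.19 (SE) from the other 5 strains (limma adjusted p = 0.00949), and the range was 1.36 (F test, adjusted p = 0.0212). The 2 probe sets placed WKY differently, just below BUF on one and between ACI and M520 on the other, and only the former separated BN from WKY. The BN call of the first Pklr probe set was lost without BN replicate 1 (-1.02, adjusted p = 0.0587) or 2 (-0.69, adjusted p = 0.182). Its F test was lost without either ACI array, either BN array, BUF replicate 2 or M520 replicate 2, at adjusted p between 0.0510 and 0.157.

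**Figure D2:**
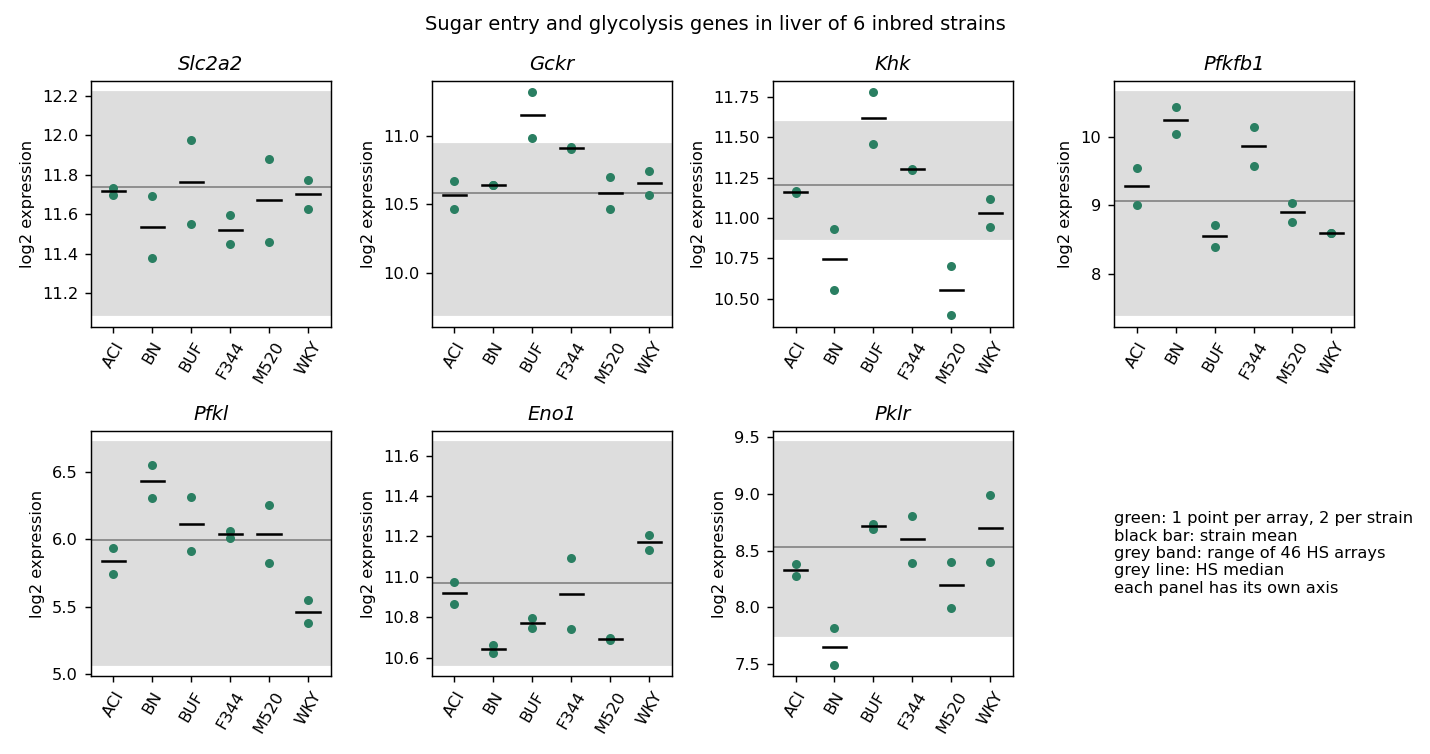
Log2 expression of the 7 genes (vertical axes, a separate axis per gene) in the inbred strains; each green point is 1 array, 2 per strain, the black bar is the strain mean, and the grey band and line give the range and median of the 46 HS arrays. The Khk means of BUF, BN and M520, the Gckr mean of BUF and the Pklr mean of BN lie outside the HS band.

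Neighbours in the order of strain means were not separated for any member: 0 of 35 neighbouring differences passed (limma). The largest step between neighbours in Pklr was the one from M520 down to BN, 0.54 ± 0.22 (SE, limma adjusted p = 0.190). BN and BUF were the opposite ends of the order for Pfkfb1 and Pklr. Both strains passed their contrasts for Pfkfb1, and for Pklr BN alone passed.

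Cell type markers moved with strain. Of all probe sets, 4.68% were called in BN, 5.76% in BUF, 4.65% in M520 and 4.74% in WKY, in either direction. No marker list was tested as a set. In BN 6 of 12 endothelial markers were higher and none lower, and the mean over that list was 8.02 and 8.14 in the BN arrays against 7.29 to 7.96 in the others. In BN 3 of 11 pericentral, 2 of 10 Kupffer cell, 1 of 10 periportal and 1 of 12 stellate markers were higher as well, and the mean over the periportal list was 11.23 and 11.48 against 10.49 to 11.18. In BUF 3 of 12 endothelial markers were lower and 1 higher, 3 of 12 stellate and 2 of 10 Kupffer cell markers were lower, 2 of 10 periportal markers were higher, and 1 of 11 pericentral markers went each way. In M520 4 of 10 periportal, 3 of 10 Kupffer cell and 2 of 12 endothelial markers were lower and none of these lists had a marker higher. In WKY 2 of 12 stellate and 1 of 10 Kupffer cell markers were higher, 1 of 11 pericentral markers was lower, and 1 of 10 periportal markers went each way. The hepatocyte list gave 1 call in all, lower in M520, and its mean was 14.06 and 14.07 in BN against 13.96 to 14.12 in the others. The part of these markers in the strain differences of the 7 genes was not tested.

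The spread among outbred rats and the spread among strains placed Khk and Slc2a2 differently, while Pfkfb1, Pfkl and Pklr were high by both. Among HS rats Pfkfb1 had the largest SD of the members (0.74, the 98.8th percentile of 9362 genes with a mean above the median) and Khk the smallest (0.16, the 35.8th percentile), where the median SD of those genes was 0.18. The strain means of Khk nevertheless ranged over 1.07, the 89.6th percentile, where the median was 0.51. Pfkfb1, Pfkl and Pklr stood at percentiles 98.8, 90.5 and 88.6 by SD, and at 96.9, 86.7 and 89.5 by strain range. All 46 HS values of Khk lay between the M520 and the BUF mean. For Pklr no HS rat lay below the BN mean and 15 lay above the BUF mean, the highest. For Slc2a2 the reverse held: its strain range of 0.24 was at percentile 8.02, and 31 of the 46 HS rats lay outside it, 9 below and 22 above. These counts set single HS rats against means of 2 arrays. The single inbred arrays of Slc2a2 ran from 11.38 to 11.97, and the HS rats from 11.09 to 12.22.

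Gckr had 20 HS rats below its lowest strain mean and none above its highest, and Eno1 had 3 below and 17 above. Pfkfb1 had 16 below and 2 above, and Pfkl 3 below and 5 above. Single values spread more widely than means of 2 arrays, so these counts do not compare the spread of HS and inbred rats. HS and inbred rats were not compared by a test.

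Among the 46 HS rats, with the mean of each glucose group removed, 5 of the 21 pairs of members were correlated past the threshold (permutation test with 100000 resamples, two-sided, Benjamini-Hochberg over the 21 pairs). The share of pairs of other genes that would pass was not computed, so this count has no background beside it. Khk and Pklr gave r = 0.76 (rho = 0.73), with p = 1e-05, the smallest these permutations can give, and adjusted p = 0.00021 for both coefficients. The relation was 0.67 within intolerant rats (adjusted p = 0.00609) and 0.82 within normal rats (adjusted p = 0.00021), and 0.76 without the 2 rats farthest from the median of Khk. The second Pklr probe set gave 0.78 with Khk, and the 2 Pklr probe sets correlated at 0.85. Of 9361 genes compared, Khk ranked 2 in likeness to Pklr and Pklr ranked 2 in likeness to Khk. Over the 6 strain means r was 0.70, a description of 6 points.

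**Figure D3:**
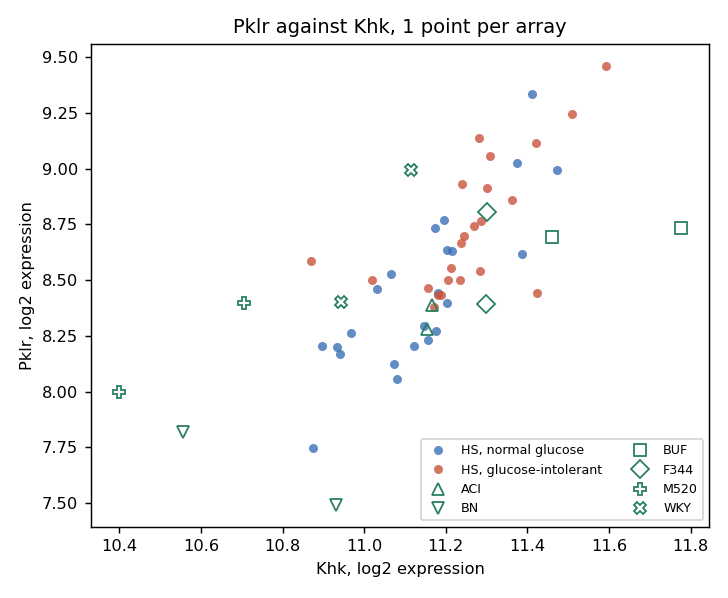
Log2 expression of Pklr (vertical axis) against Khk (horizontal axis), 1 point per array, with normal HS rats in blue, intolerant HS rats in red and the inbred strains as green symbols. HS rats with more Khk had more Pklr in both glucose groups (r = 0.82 and 0.67), and the BN arrays lie at the lower left. M520 had the lowest mean of Khk (10.55, against 10.74 in BN), but a higher mean of Pklr than BN (8.20 against 7.65).

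The other correlated pairs were weaker. Of 9361 genes compared, Khk ranked 133, Pklr 144 and Eno1 184 in likeness to Slc2a2. In likeness to Eno1, Pklr ranked 238 and Slc2a2 591. In likeness to Pklr, Eno1 ranked 72 and Slc2a2 204, and in likeness to Khk, Slc2a2 ranked 231. Eno1 and Pklr gave r = 0.49 (adjusted p = 0.0064, permutation test) with rho = 0.36 (adjusted p = 0.0624). Slc2a2 gave r = 0.42 with Khk (rho = 0.43, adjusted p = 0.0219 and 0.0225), 0.41 with Pklr (rho = 0.41, adjusted p = 0.0219 and 0.0245) and 0.39 with Eno1 (rho = 0.28, adjusted p = 0.0312 and 0.146). Without the 2 rats farthest from the median on the x axis these fell to 0.36, 0.32, 0.30 and 0.29, with adjusted p of 0.0803, 0.0803, 0.0962 and 0.112, so these 4 calls, though not all of each r, rested on those rats. With the second Pklr probe set Eno1 and Pklr gave 0.33 (adjusted p = 0.0802). Gckr and Pfkl gave r = 0.34 (adjusted p = 0.0802) but rho = 0.44 (adjusted p = 0.0225), and r = 0.50 (adjusted p = 0.00514) without the 2 rats farthest from the median of Gckr. With the leading residual component removed, r for Gckr and Pfkl was 0.09 (adjusted p = 0.625). Before that removal Pfkl ranked 1993 of 9361 genes in likeness to Gckr, and Gckr ranked 1687 in likeness to Pfkl. By r over all 46 rats, no pair with Pfkfb1 passed, nor any with Gckr or Pfkl. The pairs with Pfkfb1 had r between -0.15 and 0.26, although Pfkfb1 and Eno1 passed once the leading residual component was removed (r = 0.39, adjusted p = 0.0298).

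**Figure D4:**
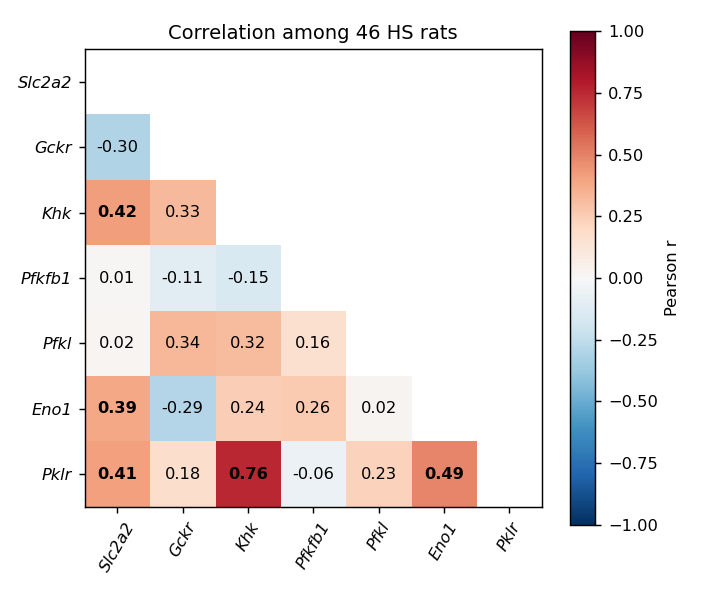
Pearson r between the 7 genes over 46 HS rats, with the means of the glucose groups removed; colour and number give r, and bold marks the 5 pairs past the threshold. Khk and Pklr stand out at 0.76, and no pair with Gckr, Pfkfb1 or Pfkl is bold.

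For each member the 2 genes most like it among HS rats were taken, with the other members left out (Khk and Pklr rank 2 for each other, as given above), and the same r was read over the 6 strain means as a description. Among genes that are not members, Pklr was closest to Tkfc (0.80, and 0.68 over strains), whose enzyme phosphorylates the glyceraldehyde made from fructose, and to Acaca (0.73 and 0.84), acetyl-CoA carboxylase of fatty acid synthesis. Khk, on the same footing, was closest to Extl1 (0.76 and 0.80), a glycosyltransferase, and to Gpd1 (0.68 and 0.59), a glycerol phosphate dehydrogenase. Pfkfb1 was closest to Por (0.84 and 0.83), the reductase that feeds electrons to microsomal cytochromes, and to Edem1 (0.84 and 0.95), which helps clear misfolded glycoproteins. For these 3 members all 6 values over strains were positive, from 0.59 to 0.95. A positive sign was not particular to them, since the values of Gckr and Pfkl given below were positive too.

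Other likenesses did not all carry over to the strains. Slc2a2 was closest to Bri3 (0.70, but -0.67 over strains) and Bhlhe40 (0.69 and 0.03), a clock-related repressor. Eno1 was closest to Sdhb (0.78 and -0.29), a succinate dehydrogenase subunit, and Rnf181 (0.73 and 0.41). Pfkl was closest to Senp3 (0.71 and 0.29), a SUMO protease, and Icoslg (0.71 and 0.05), a costimulatory ligand. Gckr was closest to Tpst2 (0.74 and 0.46), a tyrosine sulfotransferase, and Tssc4 (0.73 and 0.83). The median absolute r with all compared genes lay between 0.128 (Pklr) and 0.240 (Gckr).

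The rest of the pathway was read from lists of genes by step. None of these genes passed the test between the glucose groups, and the calls below are from the strain tests (limma, adjusted p under 0.05). Each count of F test calls stands beside 11.9% of all probe sets and 2241 of 14217 genes with 1 probe set per gene. No list was tested as a set. Glycolytic enzymes and isoenzymes other than the members gave 0 calls among 13 measured genes in the F test, with a median range of 0.44, equal at this precision to that of all genes (0.44). The 3 other bifunctional enzymes gave 0 calls as well. In single-strain contrasts 1 glycolytic gene was lower in BN, and this was Pgk1 (-0.40, adjusted p = 0.0484), phosphoglycerate kinase, named after its value was seen. In the glucose comparison 7 of the 13 glycolytic genes had the larger mean in intolerant rats, with Pfkm, the muscle phosphofructokinase, at -0.28 ± 0.11 (SE, adjusted p = 0.539) and Pgam1, phosphoglycerate mutase, at 0.07 ± 0.04 (adjusted p = 0.678). Among the bifunctional enzymes 1 of 3 had the larger mean in intolerant rats, with Pfkfb3 at 0.05 (adjusted p = 0.781) and Pfkfb4 at -0.07 (adjusted p = 0.818).

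Sugar carriers gave 1 call among 7 measured genes. Slc2a1, the carrier GLUT1, had strain means from 6.22 in ACI to 7.08 in BN (F test, adjusted p = 0.0225). Slc2a5, the fructose carrier, averaged 5.92 ± 0.38 in normal and 6.31 ± 0.49 in intolerant HS rats (SD, n = 23 each), and the difference of 0.39 ± 0.12 (SE) did not pass (limma adjusted p = 0.411). The means of 2 of the 7 carriers were larger in intolerant rats.

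Fructose and polyol breakdown gave 1 call among 4 measured genes, Tkfc, the gene closest to Pklr. Its strain means were 9.92 in BUF, 9.52 in M520, 9.40 in F344, 9.31 in ACI, 8.87 in WKY and 8.30 in BN, a range of 1.62 (limma moderated F test, adjusted p = 0.00140). BN was lower than the other 5 strains by -1.11 (adjusted p = 0.000717) and BUF higher by 0.84 (adjusted p = 0.00674). In HS rats Tkfc averaged 9.16 ± 0.41 in normal and 9.50 ± 0.35 in intolerant rats (SD, n = 23 each), and the difference of 0.35 ± 0.11 (SE) did not pass (adjusted p = 0.391). Akr1b1, aldose reductase, differed by -0.10 (adjusted p = 0.704), and 2 of the 4 genes had the larger mean in intolerant rats.

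Beyond glycolysis, 7 of 19 genes of pyruvate and lactate handling were called by the F test, with a median range of 0.84. This compares with 11.9% of all probe sets, and with 2241 of 14217 genes when 1 probe set per gene was tested. The lactate and pyruvate carriers Slc16a7 (range 1.89, adjusted p = 0.00912) and Slc16a1 (1.29, 0.0106), the dehydrogenase subunit Dld (1.51, 0.0323) and the aminotransferase Gpt (1.07, 0.0162) had the widest ranges. Slc16a7 was lower in BUF, by -1.25, and higher in M520, by 1.02, and Dld was lower in BUF, by -1.03. Slc16a1 was lower in BN, by -0.74, and higher in ACI, by 0.81. Gpt was lower in WKY, by -0.73, and higher in BUF, by 0.56. In HS rats 13 of the 19 had the larger mean in intolerant rats, with Ldha, lactate dehydrogenase, at 0.18 ± 0.06 (SE, adjusted p = 0.366) and Pdhx at 0.13 ± 0.04 (adjusted p = 0.421).

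The opposing gluconeogenic steps gave 2 calls among 7 genes, Slc37a4, the glucose phosphate carrier of the endoplasmic reticulum (range 0.86, adjusted p = 0.0299), and Fbp2, the muscle fructose-bisphosphatase (0.83, 0.0323). Fbp2 was dim, with strain means from 4.22 in WKY to 5.05 in M520, below the lowest array median of 5.33. Slc37a4 was higher in BUF, by 0.58 (adjusted p = 0.0481). The means of 3 of the 7 were larger in intolerant rats, with Slc37a4 at 0.11 (adjusted p = 0.615) and Pc, pyruvate carboxylase, at 0.15 (adjusted p = 0.629). The pentose phosphate branch gave 3 calls among 7 genes, Pgd (range 0.84, adjusted p = 0.0142), H6pd (0.76, 0.0283) and Pgls (0.71, 0.0316), and 5 of the 7 had the larger mean in intolerant rats, with Rpe at 0.18 (adjusted p = 0.603) and Taldo1 at 0.07 (adjusted p = 0.721).

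Among 14 measured transcription factors of liver glycolytic genes, Myc, Srebf1, Klf10 and Mlxipl were called by the F test. Srebf1, which drives lipid synthesis genes under insulin, had its lowest mean in BN (8.19 against 9.52 to 10.25 in the other strains, -1.70 from the other 5, adjusted p = 0.00800). Klf10, a repressor induced by sugar, was higher in BN by 1.20 (adjusted p = 0.0319). Mlxipl, which encodes the carbohydrate response element binding protein, was higher in ACI by 0.66 (adjusted p = 0.0124), and BN gave -0.33 and did not pass (adjusted p = 0.160). Myc was higher in M520 by 1.88 (adjusted p = 0.0313) and lower in F344, by -2.08 (adjusted p = 0.0348). In the glucose comparison 8 of the 14 had the larger mean in intolerant rats, with Mlx, the partner of the Mlxipl product, at 0.11 ± 0.04 (SE, adjusted p = 0.501) and Srebf1 at 0.22 (adjusted p = 0.706).

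Sugar and insulin responsive genes outside glycolysis gave 6 calls among 14 genes, against 11.9% of all probe sets, with a median range of 1.22. Scd, stearoyl-CoA desaturase, averaged 4.79 in BN against 7.77 to 10.78 in the other strains (-4.60 from the other 5, limma adjusted p = 1.91e-05). Scd was also higher in F344, by 2.59 (adjusted p = 0.00271), and in BUF, by 1.35 (adjusted p = 0.0480). Igfbp1 and Igfbp2, insulin-like growth factor binding proteins made in liver, were higher in BN by 2.22 (adjusted p = 0.00782) and 2.02 (adjusted p = 0.0188). Me1, malic enzyme, was lower in BUF, by -1.11 (adjusted p = 0.00126), and higher in M520, by 1.01, and in ACI, by 0.62. In HS rats 11 of the 14 had the larger mean in intolerant rats, with Igfbp2 at -0.69 ± 0.23 (SE, adjusted p = 0.421) and Gpd1, one of the genes most like Khk, at 0.14 ± 0.06 (adjusted p = 0.520).

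**Figure D5:**
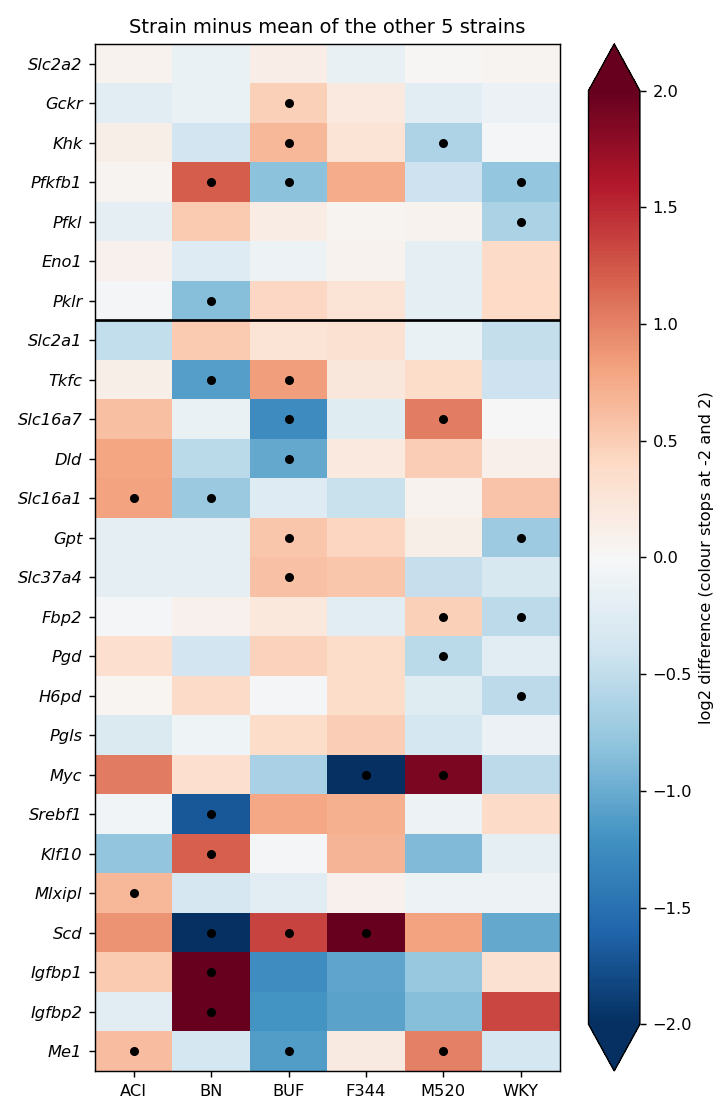
Difference between each strain (columns) and the mean of the other 5 (log2, colour, cut at -2 and 2) for the 7 genes above the line and the pathway genes named from the strain F test below it; dots mark differences past the threshold. In BN, Pklr, Tkfc, Slc16a1, Srebf1 and Scd are low and Pfkfb1, Klf10, Igfbp1 and Igfbp2 are high.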

How the data were processed

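Liver RNA of 58 rats was amplified by a 2-cycle method, labelled and hybridised to Affymetrix rat 230_2 arrays, per the labels' protocols. The authors' deposited table holds log2 expression per probe set on a common scale. The submitters' processing notes name Partek, with no version, and how background was corrected and arrays were normalised was not given in the sources used here. Precision is limited by how many arrays each group holds, since arrays have no read depth.

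Of the probe sets, 20826 had 1 symbol in the platform annotation, 436 had several and 9780 had none, and only those with 1 were named. Tests used limma 3.58.1 in R 4.3.3 (lmFit, eBayes) on the values as deposited, two-sided, with Benjamini-Hochberg adjustment over all 31042 probe sets at 0.05. They were checked on simulated data. HS groups were compared over 46 arrays, and strains over 12 arrays by a moderated F test, by contrasts of 1 strain with the other 5 averaged and by the 15 pairs. Strain contrasts share their arrays. Permutation tests of correlations used Python 3.11.15 with scipy 1.17.1 and numpy 2.4.6. Promoters came from RefSeq tables of GRCr8.

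The members and gene lists were chosen with earlier results of these data known. Named genes were the members, up to 4 genes per list called by the F test with the widest range, the 2 of smallest p per list in the glucose comparison, and the 2 most like each member among genes that are not members and have a mean above the median. Alternatives covered normalisation, filters, variance estimation, array weights, a residual component, the replicate block and leaving out arrays. Some listed genes were not analysed here. No batch was tested, since the labels name no litter, cage or scan date.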

Additional observations from a re-analysis of the deposited data

How the results depend on the processing

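No called result reversed under any alternative run. Among the pairs of members not called, r changed sign under some settings, as for Gckr and Eno1 from -0.29 to 0.02 with the leading residual component removed. In the glucose comparison 0 of the 7 genes were called under every alternative, while the probe sets called over the array went from 0 to 1 with quantile normalisation, 12 with array weights and 185 once the leading residual component (17.97% of the residual variance) was added as a covariate. For the strain F test 3700 probe sets were called, against 2241 with 1 probe set per gene, 1036 without variance moderation and 2130 to 5945 with 1 array left out. Members called by it went from 4 to 0 without variance moderation, to 1 (Khk) with all 58 arrays in 1 fit and to 2 to 5 with 1 array left out. Of the 42 strain contrasts, 8 were called, against 0 without variance moderation, 5 with array weights, 3 with all 58 arrays in 1 fit and 5 to 8 with 1 array left out. Neighbouring strains gave 0 of 35 calls under every alternative run. Correlated pairs went from 5 of 21 to 8 with centring on array medians, 1 within intolerant rats, 3 within normal rats and 2 without the 2 arrays farthest on the x axis, which may differ from pair to pair. Khk and Pklr stayed past the threshold in all 8 alternatives, with r from 0.67 to 0.82. The setting with the second Pklr probe set was chosen after seeing the data. The causes were not tested.

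Deviations of same-numbered arrays from their strain means correlated between -0.15 and 0.42, so the replicate numbers were not taken to pair arrays. With the replicate block the F test called 3698 probe sets and 4 members, and 10 of the 42 contrasts. With 2 arrays per strain, the strain calls rest on a spread pooled over strains and probe sets. Where an array is left out, the remaining array of its strain is assumed to vary like the other strains.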
